A study of Mus musculus with 2 samples.

Results

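The miR-378 genes were examined in small RNA libraries from the hearts of mouse embryos. The family was represented by 4 of the 1973 miRNA genes listed in the count tables, namely Mir378b, Mir378c, Mir378d and Gm25301. The first 3 were chosen by name and read on their own strand. Gm25301 was selected on its opposite-strand counts, because Mir378a, which is not among the listed genes, lies on the other strand at the same place. The counts of the opposite strand at Gm25301 are therefore described here as reads at the Mir378a locus, and their level, having chosen the gene, is given without a test. The 2 libraries are biological replicates of a single group, healthy embryonic hearts of strain B6NCrl at embryonic day 16.5, from pooled males and females with no treatment named in the labels. Each library comes from a pool, of 41 embryos for replicate 2 and of a number not given in the sources used here for replicate 1. With a single group there is no comparison of conditions, and only the spread between the 2 pools can be tested.

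MicroRNAs are small RNAs that guide Argonaute proteins to messenger RNAs, mainly through the seed, the bases 2 to 8 from the 5′ end. Mir378a sits in an intron of Ppargc1b, which encodes PGC-1β, a transcriptional coactivator of mitochondrial and lipid metabolism genes. Its products are known as abundant miRNAs of heart, skeletal muscle and brown fat that act on oxidative metabolism, and mice lacking Mir378a have been described as resistant to diet-induced obesity. Mir378b, Mir378c and Mir378d are separate genes named for their similar mature sequences.

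The sequences of Mir378b, Mir378c and Mir378d show how alike these 3 genes are. The RefSeq miRNA table (GRCm38.p6) held 3 of the 4 members, each with a single mature miRNA. They are written 5′ to 3′ with the seed in capitals.
mmu-miR-378b: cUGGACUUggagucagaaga
mmu-miR-378c: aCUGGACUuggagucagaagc
mmu-miR-378d: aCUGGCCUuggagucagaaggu
The mature miRNAs are 20, 21 and 22 bases long. All 3 hold the same run of 14 bases, cuuggagucagaag, and of the 1005 hairpins in the table only those of Mir378b, Mir378c and Mir378d hold it. The 3 seeds nevertheless differ, and none of the other mature miRNAs among the 1738 in the table shared any of them. Mir378a had no entry in the table, so its seed and hairpin were not compared with these. miR-378b starts 1 base later than miR-378c, and 19 of its 20 bases match, with the single substitution A20C counted from the 5′ end of miR-378b. Between miR-378c and miR-378d, 19 of 21 aligned bases match and the substitutions are A6C and C21G, counted from the 5′ end of miR-378c. The first of these lies within the seed. The hairpins of Mir378b and Mir378c share a 19-base run and neither shares a 20-base run with another hairpin, whereas Mir378d shares no run of 18 bases with any hairpin in the table. Mir378a and Gm25301 were not part of these sequence comparisons, so whether reads of Mir378a can be told apart from those of the 3 genes was not tested. A read confined to the 19 shared bases matches both Mir378b and Mir378c, and the deposited tables counted reads matching several places in no gene, so the counts of these genes may be incomplete.

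The hairpins differ more than the mature miRNAs do. They are shown with the mature miRNA in capitals, to show which arm it comes from.
Mir378b: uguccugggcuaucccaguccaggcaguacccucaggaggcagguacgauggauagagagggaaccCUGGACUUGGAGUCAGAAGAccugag
Mir378c: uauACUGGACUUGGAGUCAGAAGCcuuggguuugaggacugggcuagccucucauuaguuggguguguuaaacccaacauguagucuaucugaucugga
Mir378d: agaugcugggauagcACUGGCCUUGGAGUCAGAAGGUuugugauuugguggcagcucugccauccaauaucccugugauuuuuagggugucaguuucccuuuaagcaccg
In Mir378b the mature miRNA occupies bases 67 to 86 of 92 and so lies in the 3′ arm. In Mir378c it occupies bases 4 to 24 of 99, and in Mir378d bases 16 to 37 of 110, both in the 5′ arm. The minimum free energy predicted by RNAfold was -31.1 kcal/mol for Mir378b, -27.0 kcal/mol for Mir378c and -35.0 kcal/mol for Mir378d. Per base this came to -0.34, -0.27 and -0.32, against a median of -0.41 over all hairpins in the table. Only 24.1%, 6.77% and 17.0% of hairpins had a weaker predicted fold per base than Mir378b, Mir378c and Mir378d. In the predicted structures 15 of 20 mature bases were paired in Mir378b, 15 of 21 in Mir378c and 13 of 22 in Mir378d. In Mir378d 10 of the 13 paired with other bases of the same mature miRNA, which was the case for 0 bases in Mir378b and Mir378c. These are predictions from sequence and not measurements in the heart.

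The 3 listed genes with sense counts lie outside any host gene of their own strand. Mir378b (ENSMUSG00000092985.1) lies on the plus strand of chromosome 11 at 88352773 to 88352864 of mm10, within an intron of Msi2, an RNA-binding protein gene transcribed from the other strand. Mir378c (ENSMUSG00000099036.1) lies on the minus strand of chromosome 14 at 46954830 to 46954928, within an intron of Samd4, a gene for a translational repressor that is also transcribed from the other strand. Mir378d (ENSMUSG00000098756.1) lies on the minus strand of chromosome 10 at 126710282 to 126710391 and overlaps no annotated gene. The nearest protein-coding gene to it, Atp23, is 158036 bases away. Few other listed miRNA genes lie within 1000000 bases of these genes. Near Mir378d they are Mir26a-2 (30.4 CPM, counts per 1000000 sense counts), Mir546 with 4 and 8 counts and Gm22183 with none in either library. Near Mir378b the only one is Mir142b, with 0 and 1 sense count but 11332 and 19615 opposite-strand counts. Near Mir378c there is none.

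Mir378a differs from them in lying on the strand of its host. Its annotated hairpin (ENSMUSG00000105200.1) spans 61397835 to 61397900 on the minus strand of chromosome 18, in intron 1 of Ppargc1b and 2531 bases from the annotated start of that gene. Gm25301 (ENSMUSG00000093026.1) spans 61397813 to 61397925 on the plus strand, so its 113 bases cover all 66 bases of Mir378a with 22 and 25 to spare. The map of the locus shows this arrangement. Of the 6 other listed miRNA genes within 1000000 bases, Mir145a and Mir143, a pair of smooth muscle miRNAs, lie 249900 and 251271 bases away and stood at 1288 and 96423 CPM. Mir5107, Mir7220, Mir6982 and Mir6983 had at most 5 counts in either library.

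**Figure D1:**
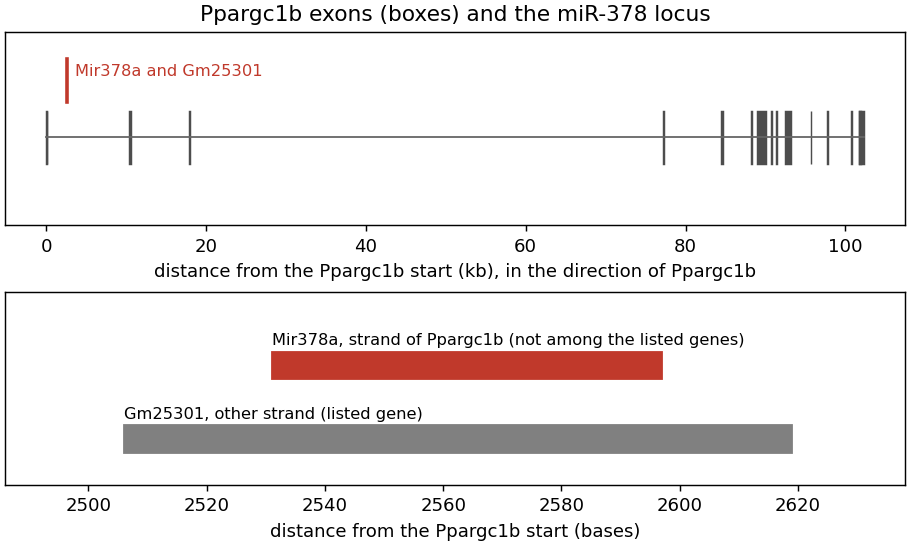
Position of Mir378a and Gm25301 in Ppargc1b, as distance from the annotated start of Ppargc1b in kb (top, boxes are exons of its annotated transcripts) and in bases (bottom). Mir378a, on the strand of Ppargc1b and 2531 bases from its start, lies wholly inside Gm25301, which is annotated on the other strand.

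The libraries held 15207730 and 12885555 reads, of which 6473482 and 5841568 were sense counts at listed genes and 29.5% and 31.9% matched several places. Heart muscle markers were present, with Mir208a, Mir208b and Mir499 summing to 67703 and 67120 CPM. The skeletal muscle miRNA Mir206 stood at 115 and 234 CPM. The brown fat markers Mir193b, Mir365-1 and Mir455 summed to 570 and 511 CPM, and 2 of the 3 had at least 10 counts in each library. Most of this sum was Mir455, at 528 and 440 CPM, while Mir193b stood at 40.9 and 70.7 CPM. Markers of smooth muscle (97337 and 98086 CPM), endothelium (85979 and 84356), erythroid cells (2037 and 1719), leukocytes (586 and 717) and hepatocytes (160 and 161) were also detected. The sums leave out Mir486a of the erythroid and Mir142 of the leukocyte markers, which were not measured. On the opposite strand of Mir142b, where Mir142 lies, reads stood at 1750.5 and 3357.8 CPM. Of 5 measured neural markers 0 had at least 10 counts in each library. They summed to 2.78 CPM in replicate 1 and 0.171 CPM in replicate 2. Mir124a-3 and Mir9-2 had no count in either library. Their names mark them as numbered copies of a miRNA. Any read shared between copies was left out of the counts, so the neural result cannot show whether neural RNA was absent. These are whole hearts, so which cells the miR-378 reads came from was not tested, and the number of cells of a type cannot be told apart from the RNA in each cell.

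Reads at the Mir378a locus far outnumbered those of the other family genes. On the opposite strand of Gm25301 there were 298224 counts in replicate 1 and 289603 in replicate 2. Both libraries were thus high, at 46069 and 49576 CPM, with a mean of 47822 ± 2480 CPM (SD, n = 2). Read against the sense genes, this level stood at rank 9 in each library, behind 2.19% of the 365 genes with at least 10 sense counts in each. The ranking leaves out reads matching several places, so genes with several copies may stand too low in it. The locus took 1.96% of all reads in replicate 1 and 2.25% in replicate 2. On the strand of Gm25301 itself there was no read in either library, and a count of 0 allows a share of up to 0.00101% and 0.00104% of the reads at the locus. Intervals and floors here cover counting error only.

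Mir378d was the highest of the remaining genes, with 480 and 418 counts. This corresponded to 74.2 and 71.6 CPM, a mean of 72.9 ± 1.83 CPM, at rank 204. Mir378c had 398 and 289 counts, or 61.5 and 49.5 CPM (55.5 ± 8.49 CPM, rank 213). Both Mir378d values lay above both Mir378c values. Mir378b was lowest with 70 and 84 counts, or 10.8 and 14.4 CPM (12.6 ± 2.52 CPM, rank 271). Its libraries did not overlap those of Mir378c either, so the order from Gm25301 through Mir378d and Mir378c to Mir378b was the same in both pools. Counts were not divided by length, because a small RNA read covers its whole molecule and the 3 mature miRNAs differ by at most 2 bases. None of these 3 genes had a read on its opposite strand.

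**Figure D2:**
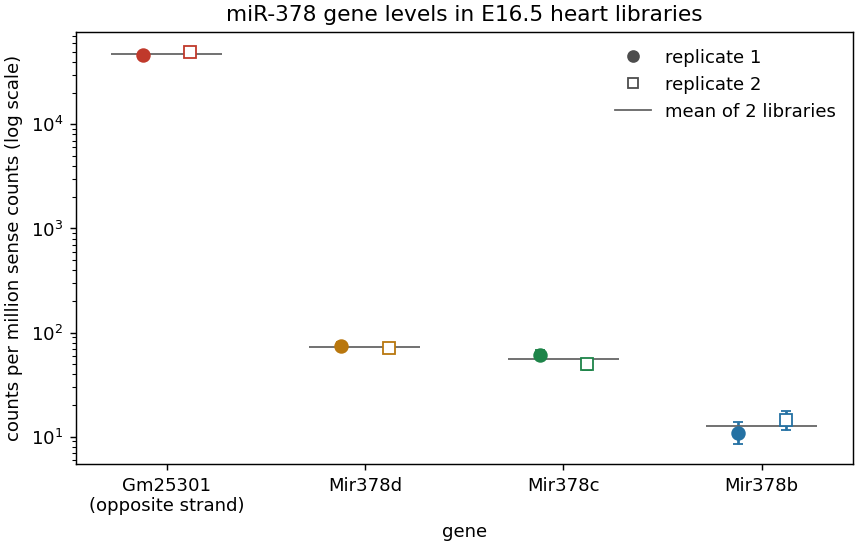
Level of each miR-378 gene in CPM (log axis) in replicate 1 (filled circles) and replicate 2 (open squares), with exact Poisson 95% intervals for counting error and the mean of the 2 libraries as a line. The opposite-strand level at Gm25301 lies at 46069 and 49576, and those of Mir378d, Mir378c and Mir378b between 74.2 and 10.8.

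The Mir378a locus held nearly the whole family total. It accounted for 99.683% of the 299172 family counts in replicate 1 (Wilson 95% interval 99.662 to 99.703) and 99.728% of 290394 in replicate 2 (99.708 to 99.746). Mir378b, Mir378c and Mir378d together held the other 0.317% and 0.272%. Relative to Mir378d the locus had 621 times the counts in replicate 1 (exact 95% interval 568 to 681) and 693 times in replicate 2 (629 to 764). Relative to Mir378c it had 749 times (679 to 829) and 1002 times (893 to 1129). For Mir378b the ratios were 4260 (3372 to 5465) and 3448 (2785 to 4322). The ratio to Mir378c was thus higher in replicate 2, with counting intervals that did not overlap, while the intervals of the other ratios overlapped. Whether reads of one member were counted at another was not tested.

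Mir378d and Mir378c held most of the counts of the 3 lesser genes in both libraries. Mir378d held 50.6% and 52.8% of their 948 and 791 counts, Mir378c 42.0% and 36.5%, and Mir378b 7.38% and 10.6%. The Wilson 95% intervals of the 2 libraries overlapped for Mir378d (47.4 to 53.8 and 49.4 to 56.3), for Mir378c (38.9 to 45.2 and 33.2 to 40.0) and for Mir378b (5.89 to 9.23 and 8.66 to 12.96). Mir378d exceeded Mir378c 1.21-fold in replicate 1 (exact 95% interval 1.05 to 1.38) and 1.45-fold in replicate 2 (1.24 to 1.69). Mir378c exceeded Mir378b 5.69-fold (4.40 to 7.44) and 3.44-fold (2.69 to 4.44). Overlapping intervals do not show that the libraries had the same make-up.

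**Figure D3:**
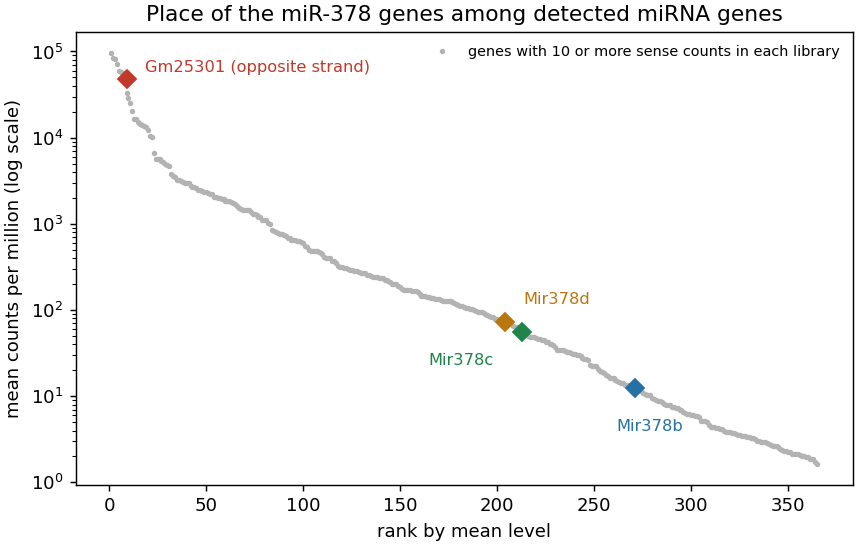
Mean CPM (log axis) of the 365 genes with at least 10 sense counts in each library, ranked from highest to lowest, with the miR-378 genes as diamonds. The opposite-strand level at Gm25301 would stand at rank 9, and Mir378d, Mir378c and Mir378b stand at ranks 204, 213 and 271. The levels leave out reads matching several places.

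The genes closest in level were taken as the 3 next above and the 3 next below each member. Around the Mir378a locus these were Mirlet7g (52420 ± 3280 CPM), Mirlet7i (56944 ± 2111) and the heart muscle miRNA Mir208b (58261 ± 1172) above, and Mir26b (32861 ± 2274), Mir30e (28556 ± 2035) and Mir351 (25049 ± 3432) below. None of the 6 overlapped the range of the locus over the 2 libraries, so its place between the let-7 genes and Mir26b was the same in both. Around the lesser genes the order was less certain. For Mir378d the ranges of Mir496a, Mir181a-2, Mir450-1, Mir138-2 and Mir505 overlapped its own, and that of Mir137 at 71.1 CPM did not. In replicate 2 Mir137 had 417 counts and Mir378d 418, so this gap lies within counting error. All 6 neighbours of Mir378c overlapped it, namely Mir193b, Mir493 and Mir345 above and Mir412, Mir135b and Mir539 below. The same held for the 6 neighbours of Mir378b, from Mir1968 at 13.3 CPM to Mir346 at 11.5 CPM.

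The strand pattern at Gm25301 was compared with the other listed genes. Its opposite-strand reads made up 76.2% of all opposite-strand counts in replicate 1 (Wilson 95% interval 76.1 to 76.4) and 76.3% in replicate 2 (76.2 to 76.4). Of 377 loci with at least 10 reads of either strand in each library, 11 had more opposite-strand than sense counts in both, and Gm25301 was the highest of them. The next highest was Gm25927, where Mirlet7e lies on the other strand, at 4445 ± 56.1 CPM. Gm24083 (at Mir191), Mir142b (at Mir142) and Gm24321 (at Mir409) followed at 2559 ± 219, 2554 ± 1137 and 2532 ± 477 CPM. Strand purity itself was common, since 339 of the 377 loci had no read on their lesser strand in either library. Among the 13 loci with at least 100000 reads in each library, 11 had none on the lesser strand, and Gm25301 was the only one whose reads lay on the opposite strand.

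**Figure D4:**
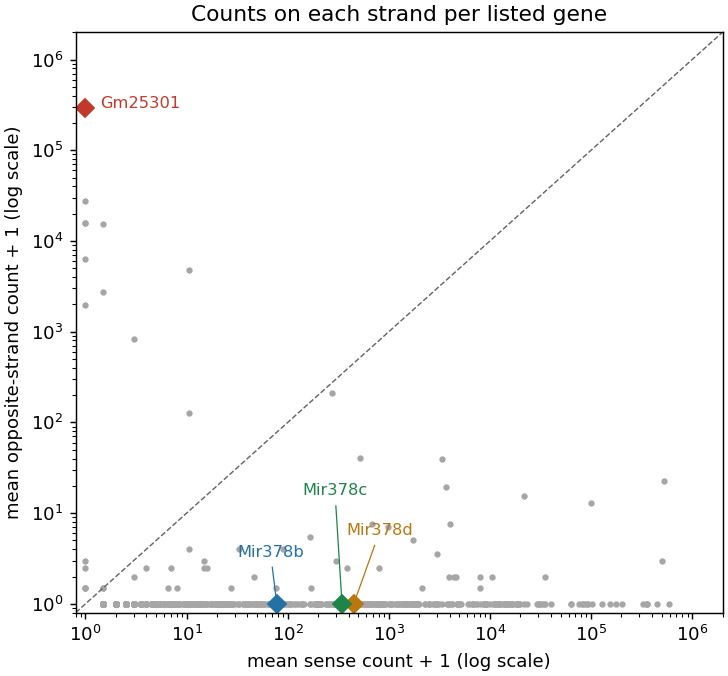
Mean sense count and mean opposite-strand count of each listed gene over the 2 libraries, each plus 1 on a log axis, with equal counts on the dashed line. Gm25301 lies at the upper left with no sense count, and Mir378b, Mir378c and Mir378d lie on the bottom line with no opposite-strand count.

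The difference between the 2 pools could be tested, since neither the names nor the strand choice rest on it. Each gene was compared by a two-sided exact binomial test on its counts given library sizes scaled by edgeR's TMM, adjusted by the Benjamini-Hochberg method over all genes with at least 10 counts in each library. A gene was called when it differed at least 2-fold with an adjusted p below 0.05. By this rule 12 of 365 genes were called on the sense strand (3.29%) and 0 of 17 on the opposite strand (0%), where 10 had an unadjusted p under 0.05 and DESeq2 size factors also gave 0. None of the 4 miR-378 genes was called. With no minimum fold 46.3% of the sense genes and 52.9% of the opposite-strand loci passed, so a passing member is no departure from the table.

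The Mir378a locus was slightly higher in replicate 2, by 1.10-fold (log2 0.13, exact 95% interval 0.12 to 0.14; adjusted p = 1.36e-265 by the exact binomial test). Its depth makes the counting error very small, and 6 of the 17 opposite-strand loci differed by less between the libraries. Mir378c was 1.22-fold lower in replicate 2, a log2 ratio of -0.29 (-0.51 to -0.07; adjusted p = 0.0243 by the exact binomial test). For Mir378b the log2 ratio was 0.43 (-0.04 to 0.92; adjusted p = 0.119 by the exact binomial test), which at 70 and 84 counts did not pass. For Mir378d it was -0.03 (-0.22 to 0.17; adjusted p = 0.885 by the exact binomial test). The median absolute log2 ratio over all 365 sense genes was 0.21, larger than that of the Mir378a locus and of Mir378d. These p-values rest on counting error and compare 2 pools, not conditions.

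**Figure D5:**
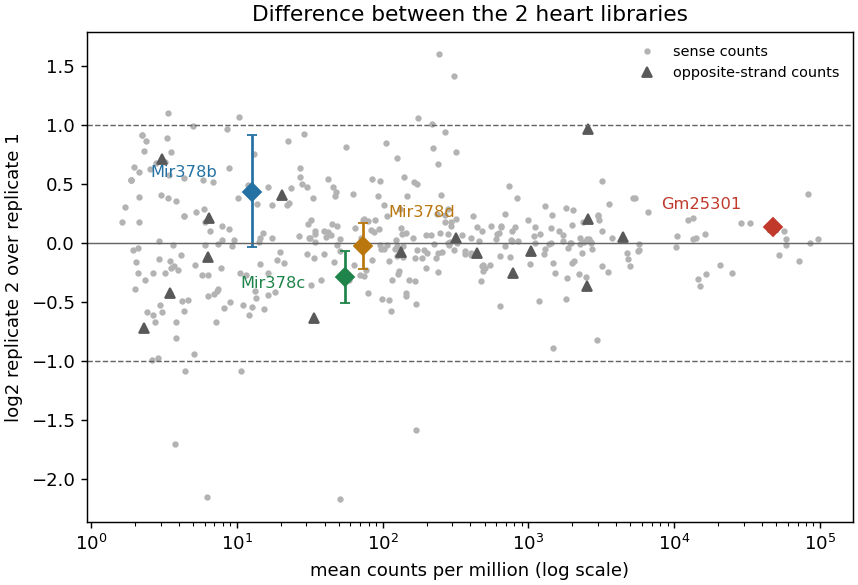
Log2 ratio of replicate 2 over replicate 1 against mean CPM (log axis) for sense counts (dots, 365 genes) and opposite-strand counts (triangles, 17 loci), with the miR-378 genes as diamonds, exact 95% intervals and dashed lines at a 2-fold difference. All 4 miR-378 genes lie between the dashed lines, from -0.29 for Mir378c to 0.43 for Mir378b.

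Other miRNAs linked to energy metabolism, among them miRNAs of brown fat, lipid and insulin pathways, were set beside the family. Of 17 such genes 16 were listed and 13 had at least 10 counts in each library. None reached the level of the Mir378a locus, and 9 of the 13 lay above Mir378d. The highest were Mir22 (10300 ± 321 CPM), a cardiac miRNA linked to hypertrophy and lipid metabolism, Mir107 (3012 ± 303 CPM), linked to insulin sensitivity, and Mir27b (1388 ± 20.98 CPM). Their median log2 ratio between the libraries was 0.04, against 0.02 over all genes tested. By the 2-fold rule 0 of the 13 were called, against 3.29% of the 365 sense genes. With no minimum fold 6 were higher, 3 lower and 4 did not pass, where 46.3% of the sense genes passed. Of 9 measured muscle miRNAs 7 were detected, and 1 of them, Mir208b, stood above the Mir378a locus. By the 2-fold rule 1 of the 7, Mir206, was called, higher in replicate 2, beside the same 3.29% of sense genes. With no minimum fold 2 of the 7 were higher, 1 lower and 4 did not pass. The muscle miRNAs next in level after Mir208b, Mir208a (6556 ± 746 CPM) and Mir499 (2594 ± 13.6 CPM), stood below the locus and above Mir378d. Reads that match several copies of a miRNA were counted in no gene, in these lists as in the family. Listed genes with several copies, muscle miRNAs among them, may therefore stand too low beside the locus.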

How the data were processed

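Small RNA libraries (size range below 30, with the unit not named) were made from embryonic heart, 2 replicates of 1 group. The deposited values are raw counts per miRNA gene, made by the authors on mm10 with annotation M4 according to the file list deposited with each library. For the aligner, counter and trimming, the tool is not given in the sources used here. The tables, which have no header, hold counts of either strand and of each strand, and reads unmapped, matching several places or outside listed genes stand in separate lines that were left out of all totals. Which strand column is sense is not stated, so the column that held more counts in each library was used as the sense strand. Levels are counts per 1000000 sense counts, for opposite-strand counts too.

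Identifiers were matched without version to GENCODE M21 (1894 of 1973). Library sizes were scaled by TMM (edgeR 4.0.16, R 4.3.3) over genes with at least 10 counts in each library. Each gene was compared by a two-sided exact binomial test (scipy 1.17.1), adjusted over the whole table of its strand. The test was also run on Poisson counts simulated from the sense levels. Such counts hold counting error only, so that run does not cover the spread between pools or the opposite strand. Log2 ratios used 0.5 added to each count. edgeR's quasi-likelihood test was not used, as 1 group offers no contrast. Hairpins were folded with RNAfold 2.7.2. Mature and hairpin sequences came from RefSeq. Other settings tried were DESeq2 1.42.0 size factors, scaling to the plain totals, other count filters, no minimum fold, other denominators, the either-strand column and leaving out each replicate.

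The members, lists and tests were chosen with earlier results of these data known. Genes named are the members, the 3 next above and below each in level, the 5 loci with the most opposite-strand counts among those where these exceed sense counts, listed genes within 1000000 bases, up to 3 highest of each list, and marker miRNAs fixed as a list. Mir206, Mir124a-3 and Mir9-2 are among those markers.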

Additional observations from a re-analysis of the deposited data

How the results depend on the processing

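The level at the Mir378a locus (47822 CPM) was 44997 CPM with sense plus opposite-strand counts as denominator or with the either-strand column, and 21042.5 per 1000000 of all reads, as the denominators grow by construction. With 2 libraries, leaving out either gives the value of the other, 46069 and 49576 CPM for the locus and 99.683% and 99.728% for its family share, which is no check of stability. The sense comparison called 12 genes, 21 with no count filter, 6 with at least 50 counts in each library and 169 with no minimum fold. The opposite-strand comparison called 0 loci, and 9 with no minimum fold. The sense count was 11 with total-count scaling, 10 with DESeq2 size factors and 11 with the either-strand column. The opposite-strand count was 0 with both of these scalings and both of these count filters, and the either-strand column was not run for it. No member reached 2-fold under any of these settings, and all 4 log2 ratios kept their sign. The adjusted p of Mir378c ranged from 0.0103 to 0.0459 and that of Mir378b from 0.0982 to 0.199 over the settings (exact binomial test). No paired analysis was possible because there is only 1 group. The 2 libraries cannot be compared after leaving out one. Depth limits Mir378b most, at 70 and 84 counts.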

Other observations

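Reads on the opposite strand of listed genes were concentrated where another miRNA gene lies on that strand. In GENCODE M21, 32 listed genes overlap a miRNA gene on the other strand, and in all 32 that gene is not itself among the listed ones. At 14 of the 32 at least 10 opposite-strand counts were found in each library, and at 11 of the 32 there were none in either. The 11 loci with more opposite-strand than sense counts held 99.87% and 99.91% of all opposite-strand counts. Besides the 5 highest they were Gm25252 (Mir376a), Mir299b (Mir299a), Mir497b (Mir497), Gm25750 (Mir380), Gm24111 (Mirlet7f-1) and Mir1b (Mir1a-2), from 1037 ± 49.5 CPM at Gm25252 to 20.4 ± 3.78 CPM at Mir1b. These 6 were named after their values were seen.

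Summed over all 16 measured genes, the energy metabolism list stood at 17006 CPM in each library, less than the Mir378a locus alone. This sum leaves out reads matching several places.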
